A study of Mus musculus with 6 samples.

Results

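Desmosomal cadherins are the adhesion proteins that cross the membrane in desmosomes, the spot-like junctions that hold epithelial cells together and anchor their keratin filaments. The genes described here are the desmogleins Dsg1a, Dsg1b, Dsg1c, Dsg2 and Dsg3 and the desmocollins Dsc1, Dsc2 and Dsc3, chosen by symbol, 8 of the 17866 genes in the deposited table. All 8 passed the filter on low counts. They were measured by bulk RNA-seq in corneal epithelium separated from C57BL/6 mice at 6 months of age, with 3 libraries labelled wild type (WT) and 3 labelled Rela-/- (KO), each made from a different biological sample. In the study the KO mice were Krt14-Cre; Rela f/f, so Rela, the gene of the p65 subunit of NF-κB, was deleted by a Cre recombinase under the promoter of keratin 14, which is active in basal cells of stratified epithelia such as cornea, conjunctiva and skin. The labels do not give the alleles of the WT animals.

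A desmoglein and a desmocollin on one cell meet their partners on the next cell, and inside the cell their tails hold plakoglobin and plakophilins, which in turn bind desmoplakin and through it keratin. In stratified epithelium of the skin, Dsg1 and Dsc1 are best known from the upper, differentiating layers and Dsg3 and Dsc3 from the lower layers, while Dsg2 and Dsc2 also occur in simple epithelia and heart. Dsg1 and Dsg3 are the targets of the autoantibodies of the blistering disease pemphigus. The mouse carries Dsg1 as 3 neighbouring genes.

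The libraries held between 20158404 and 20880347 estimated counts in all. Levels are given as estimated counts, as CPM (counts scaled to the TMM-adjusted library total and a common size of 1000000) for comparing libraries, and as the deposited FPKM, which corrects for gene length, for comparing genes. Rela was counted 1871, 1844 and 1855 times in WT against 318, 223 and 313 times in KO, so the groups followed their labels. Markers of several epithelia moved between the groups. The summed level of 6 corneal epithelial markers, all lower in KO, was 68055 to 68880 CPM in WT and 11587 to 14327 CPM in KO. For 6 markers of suprabasal epidermis it went from between 15.1 and 20.3 CPM to between 11563 and 23959 CPM (all 5 tested genes were higher, and Krt2 was at or under 3 counts in every library). For 6 genes of conjunctiva and goblet cells, all higher in KO, it went from between 1874 and 2902 to between 52217 and 66930 CPM. Most of that sum was Krt13 and Krt4, with KO means of 38248 and 21745 CPM. The KO means of Muc5ac, Spdef and Agr2 were only 6.19, 8.21 and 5.23 CPM, and Muc5ac was at 0 in each WT library. Of 6 basal layer genes, 4 were lower and Krt14 was higher, with summed levels of 32229 to 36142 CPM in WT and 23326 to 25406 CPM in KO. Markers of other cells and of the meibomian gland also moved. Stromal genes summed to at most 2.74 CPM in WT and 23.3 CPM in KO (4 of 6 tested, all higher), endothelial genes to at most 0.372 and 1.505 CPM (the only tested gene, Pecam1, was higher, while Kdr and Tek were at or under 3 counts throughout), meibomian gland genes to at most 2.47 and 9.26 CPM (2 of 3 higher), and leukocyte genes to between 271 and 346 CPM in WT and between 260 and 331 CPM in KO (3 of 5 higher, 1 lower). Most of the leukocyte sum was Itgam, which was lower in KO (266 ± 37.9 to 175 ± 33.7 CPM), while Ptprc (0.402 ± 0.183 to 5.27 ± 0.883 CPM) and Cd74 (7.99 ± 3.04 to 64.3 ± 20.4 CPM; SD, n = 3 each) were higher, as was Lyz2, with at most 2 counts in WT and 125 to 227 in KO. The part of any of these markers in the values below was not tested, and in bulk RNA fewer cells of a type and less RNA per cell cannot be told apart.

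The question was how the make-up of desmosomal cadherin mRNA differed between KO and WT epithelium. Dsc1, Dsg1b, Dsg3 and Dsc2 were higher in KO, Dsg2 was lower, and Dsg1a, Dsg1c and Dsc3 did not pass the test. The span was wide, from 274-fold for Dsc1 to 0.631-fold for Dsg2. By edgeR at an adjusted p of 0.05, 5 of 8 members were called, beside 62.0% of the 13305 genes tested, so the count alone does not set the family apart. The 4 higher members stand beside 31.8% of tested genes called higher, and the 1 lower member beside 30.2% called lower. The same 5 genes had no overlap between the groups, which 68.7% of tested genes also showed. At the study's own threshold, an adjusted p of 0.001 or less and a fold of at least 2, there were 3 members (Dsc1, Dsg1b and Dsg3), beside 19.8% of tested genes. The median log2 fold change was 0.46 over the members and 0.01 over all tested genes.

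**Figure D1:**
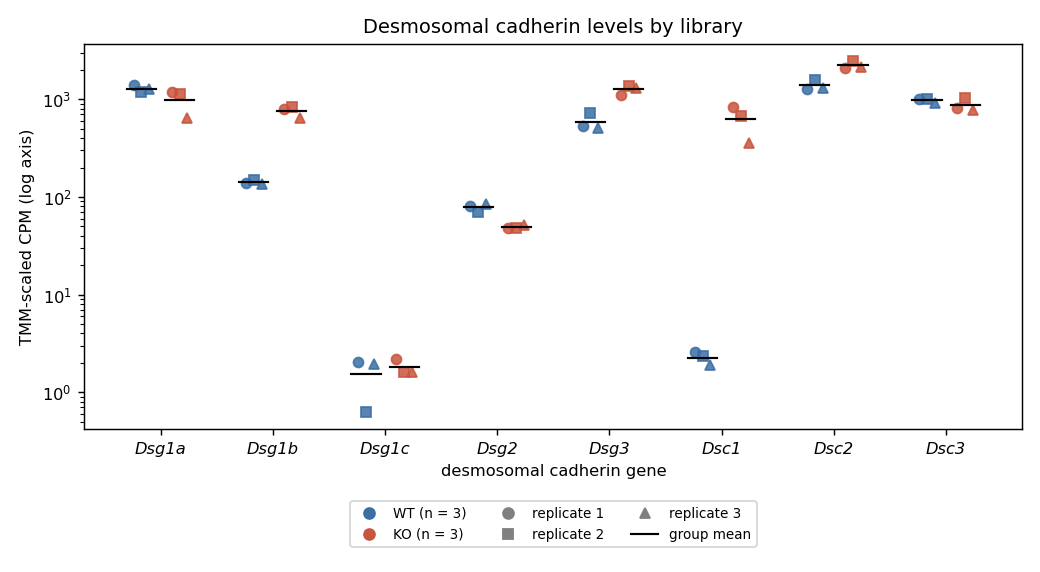
Level of each desmosomal cadherin gene in TMM-scaled CPM on a log axis, with 3 WT (blue) and 3 KO (red) libraries per gene, symbols marking the replicate and black lines the group means. Dsc1 went from about the level of Dsg1c in WT (means of 2.26 and 1.54 CPM) to 623 CPM in KO, whereas the points of Dsc3 and Dsg1a overlapped between groups.

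Dsc1 (gene 13505, GRCm38 chromosome 18, positions 20083471 to 20114773, minus strand), the desmocollin of upper epidermal layers, changed the most. WT replicates 1 to 3 held 56, 50 and 40 counts of it, and KO replicates 1 to 3 held 16570, 13349 and 7229. Each KO library was far above every WT library, and KO replicate 3 was the lowest of the KO group. The WT mean was 2.26 ± 0.340 CPM and the KO mean 623 ± 243 CPM (± SD, n = 3 each). The log2 fold change was 8.10 ± 0.377 (SE), with an adjusted p = 1.48e-06 by the edgeR quasi-likelihood test, or 274-fold with a 95% interval of 151 to 499.7. This was place 128 when all 13305 tested genes were ordered from the largest rise. On the FPKM scale, only 12.4% of tested genes had a lower mean than Dsc1 in WT, compared with 95.9% in KO.

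Among KO libraries Dsc1 was also the most variable member, with a highest level 2.33 times the lowest, while the same ratio was between 1.07 and 1.88 for the others. The 3 genes whose centred log2 CPM lay closest to that of Dsc1 over the 6 libraries, among 10457 genes with a mean count of at least 100, were Serpinb3d, Sdr16c5 and Atp6v0a4, with root mean square differences of 0.217, 0.349 and 0.362. All 3 were at 0 CPM in each WT library. Serpinb3d stood at 25.8, 21.3 and 12.9 CPM in KO replicates 1 to 3, against 839, 670 and 360 CPM for Dsc1. With WT values at 0, these distances depend on the small count that is added before the logarithm, no fold is given for the 3 genes, and a short distance does not show that their change was of the same size as that of Dsc1.

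The Dsg1 genes are the desmoglein counterparts of Dsc1 in upper epidermis, and only Dsg1b among the 3 passed the test. Dsg1b (gene 225256, chromosome 18, positions 20376729 to 20412183, plus strand) was counted 3040, 3228 and 2869 times in WT against 15687, 16655 and 12894 times in KO. Its KO libraries all lay above its WT libraries. The level rose from 142 ± 7.48 to 757 ± 102 CPM (± SD, n = 3 each), which was 2.42 ± 0.128 (SE) on the log2 fold change scale with an edgeR adjusted p = 2.43e-06, or 5.34-fold (95% interval 4.36 to 6.55). The genes with the nearest profiles were Col16a1, Cst3 and Slc1a4, with root mean square differences of 0.072, 0.083 and 0.085 in log2 CPM. Their log2 fold changes were 2.54, 2.33 and 2.49. They were picked by their profile over both groups, so fold changes near that of Dsg1b follow from the choice.

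Dsg1a (gene 13510, chromosome 18, positions 20310873 to 20343353, plus strand) was the main Dsg1 gene of WT epithelium. Its counts were 30398, 25650 and 26884 in WT against 23685, 22581 and 12822 in KO. On the CPM scale KO replicate 1 lay within the WT range, KO replicate 2 just under it, and KO replicate 3 far lower. The means were 1286 ± 100.3 CPM in WT and 990.4 ± 306 CPM in KO (SD, n = 3 each), and the difference did not pass (log2 fold change -0.38 ± 0.221 SE, edgeR adjusted p = 0.169). The 95% interval of 0.542-fold to 1.09-fold covers both a fall to about that share and no change. Without KO replicate 3 the log2 fold change was -0.14.

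Dsg1c (gene 211924, chromosome 18, positions 20247340 to 20285031, plus strand) was near the lower end of detection. Its estimated counts were 44.5, 13.6 and 41.2 in WT against 43.3, 32.0 and 32.7 in KO, and WT replicate 2 was the lowest of all 6 libraries. The difference did not pass (log2 fold change 0.23 ± 0.404 SE, edgeR adjusted p = 0.636), with a 95% interval from 0.620-fold to 2.23-fold, and its sign turned without WT replicate 2 (log2 fold change -0.12).

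The 3 Dsg1 genes are similar enough that short reads can fit more than 1 of them. In the GENCODE M21 transcripts the aligned parts of Dsg1a and Dsg1b were 97.3% identical, those of Dsg1a and Dsg1c 95.7% and those of Dsg1b and Dsg1c 95.8%. Of all 50-base windows, the read length of the study, 35.0% of the longest Dsg1a transcript, 48.4% of the Dsg1b transcript and 29.0% of the Dsg1c transcript also occurred in another Dsg1 gene. The estimated counts of the 3 genes were fractional in all 6 libraries. Those of Dsg3 were too, and those of Dsg2 in 5 libraries, so fractions alone do not show how reads were divided within the trio. Each single Dsg1 level carries the uncertainty of that division. Counting every other gene, inside or outside the trio, the share was 35.0% for Dsg1a, 49.0% for Dsg1b and 29.6% for Dsg1c. No window of Dsc1, Dsc2 or Dsc3 occurred in another gene, and only 0.122% of Dsg2 and 0.357% of Dsg3 windows did.

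The sum of the 3 Dsg1 genes does not depend on how reads were divided within the trio. It was 1534, 1344 and 1411 CPM in WT and 1996, 1970 and 1283 CPM in KO. KO replicates 1 and 2 were above all WT libraries and KO replicate 3 was below them. With the 3 genes added together before the fit, the difference did not pass (log2 fold change 0.29 ± 0.177 SE, edgeR adjusted p = 0.182; 95% interval from -0.11 to 0.70 on the log2 scale). Within the trio the make-up shifted in each KO library. Dsg1b made up 8.35%, 10.5% and 9.37% of summed Dsg1 FPKM in WT and 38.8%, 40.8% and 48.1% in KO. The ratio of Dsg1b to Dsg1a FPKM was 0.104 ± 0.0130 in WT and 0.752 ± 0.156 in KO (± SD, n = 3 each), and in KO replicate 3, where Dsg1a was lowest, it reached 0.929.

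**Figure D2:**
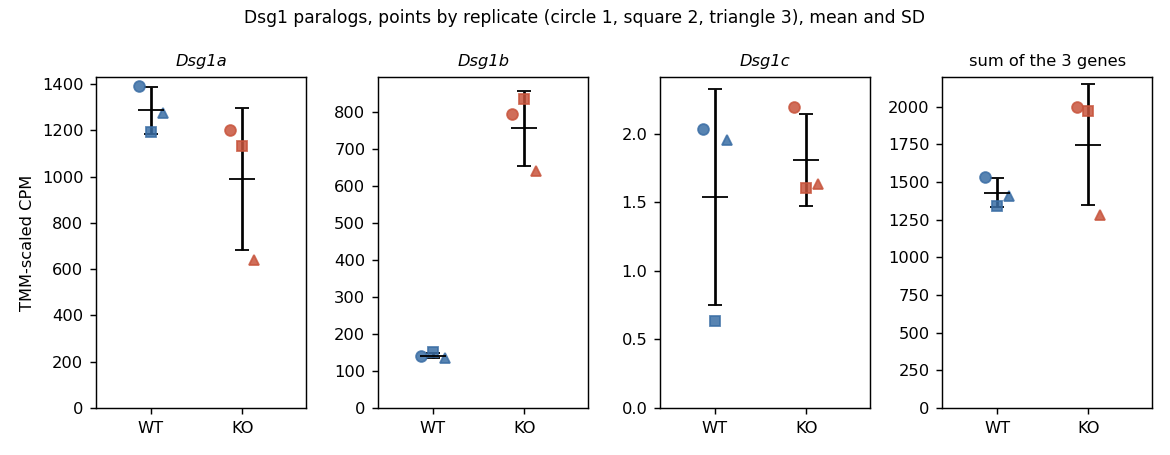
TMM-scaled CPM of Dsg1a, Dsg1b, Dsg1c and their sum in WT (blue) and KO (red), with each replicate as a point and the mean and SD of 3 libraries in black; the linear axes start at 0 and differ between panels. Dsg1b alone had no overlap between groups, and the sum in KO replicate 3 (1283 CPM) was below the WT range of 1344 to 1534 CPM.

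Dsg3 and Dsc3 are the pair known from the lower layers of epidermis. Dsg3 (gene 13512, chromosome 18, positions 20510274 to 20541310, plus strand), the main antigen of pemphigus vulgaris, was counted 11715, 15497 and 10820 times in WT against 21686, 27530 and 26328 times in KO. All KO libraries were above the highest WT library, which was WT replicate 2. The level rose from 590.0 ± 114 to 1264 ± 147 CPM (± SD, n = 3 each), which was 1.10 ± 0.161 (SE) on the log2 fold change scale with an edgeR adjusted p = 4.83e-04, or 2.14-fold (95% interval 1.66 to 2.77). WT replicate 2 also had the highest WT counts of Krt14 (25395 beside 5207 and 6712) and of Dsc2, and the part of this library in the Dsg3 value can be read from the fit without it, which gave a log2 fold change of 1.28. The nearest profiles were those of Pbdc1, Selenoh and Mad2l1, with root mean square differences of 0.043, 0.058 and 0.074. Their log2 fold changes were 1.02, 1.14 and 1.03, and that these are near the value of Dsg3 again follows from the choice.

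Dsc3 (gene 13507, chromosome 18, positions 19960930 to 20002412, minus strand) was counted 22178, 21926 and 19236 times in WT against 16031, 20545 and 15697 times in KO. The groups overlapped on the CPM scale, since KO replicate 2 was the highest of all 6 libraries (1031 CPM) and the other KO libraries were below WT. The means were 982 ± 61.9 and 875 ± 136 CPM (SD, n = 3 each) and did not differ by the test (log2 fold change -0.17 ± 0.133 SE, edgeR adjusted p = 0.304). The 95% interval ran from 0.721-fold to 1.10-fold. Whether Dsg3 and Dsc3 differed in their change was not tested.

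Dsc2 and Dsg2, the members found most widely outside stratified epithelium, moved in opposite directions. Dsc2 (gene 13506, chromosome 18, positions 20030633 to 20059554, minus strand) had the highest FPKM of the 8 genes in every library. Its counts were 27901, 34126 and 27662 in WT against 41283, 48693 and 43312 in KO, with no overlap. It rose from 1392 ± 170.3 to 2230.5 ± 187 CPM (± SD, n = 3 each), which was 0.68 ± 0.131 (SE) on the log2 fold change scale with an edgeR adjusted p = 2.13e-03, or 1.60-fold (95% interval 1.30 to 1.97).

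Dsg2 (gene 13511, chromosome 18, positions 20558074 to 20604526, plus strand) was a minor member, counted 1765, 1514 and 1793 times in WT against 961, 967 and 1040 times in KO. The KO libraries were close together and all below WT. The level fell from 78.7 ± 7.46 to 49.7 ± 1.87 CPM (± SD, n = 3 each), which was -0.66 ± 0.097 (SE) on the log2 fold change scale with an edgeR adjusted p = 4.67e-04, which left 63.1% of the WT level. The annotated antisense gene Gm16090 overlaps the end of Dsg2. Without a stated strand, reads from the part that both genes cover cannot be told apart.

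**Figure D3:**
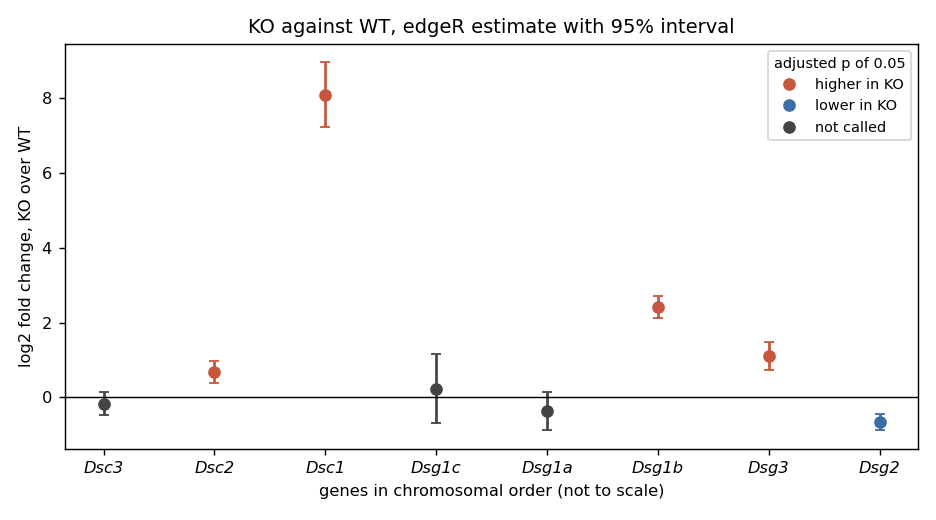
Log2 fold change of KO over WT for the 8 genes in their order along chromosome 18 (evenly spaced, not to scale), as the edgeR estimate with its 95% interval, red for called higher, blue for called lower and grey for not called. Dsc1 (8.10) and Dsg1b (2.42) stand above neighbours such as Dsg1c and Dsg1a, whose intervals include 0.

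The 8 genes lie, with Dsg4 among them, within 643.6 kb of chromosome 18, and fitted changes of unlike size and sign sat next to each other. In chromosomal order the log2 fold changes were -0.17 for Dsc3, 0.68 for Dsc2, 8.10 for Dsc1, 0.23 for Dsg1c, -0.38 for Dsg1a, 2.42 for Dsg1b, 1.10 for Dsg3 and -0.66 for Dsg2. Dsg4, a desmoglein of hair that lies between Dsg1b and Dsg3, had too few counts for a test, with 4, 1 and 0 in WT and 4, 7 and 8 in KO. Of the 5 nearest table genes on either side, 7 were tested. Of these 3 were higher (Kctd1, B4galt6 and Rnf125), 1 was lower (Chst9) and Cdh2, Trappc8 and Rnf138 did not pass. The background was 62.0% of all tested genes called, 31.8% higher and 30.2% lower. The flanking genes on the Dsg2 side began 59.2 kb away with Ttr, at or under 3 counts in every library. B4galt6 and Rnf125 had at most 51.1 counts in any library. On the Dsc3 side the nearest was Cdh2, 3152 kb away.

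On the length-corrected scale the order of the members changed between groups. In WT the mean FPKM was 309 for Dsc2, 254 for Dsg1a, 195 for Dsc3, 146 for Dsg3, 26.3 for Dsg1b, 13.9 for Dsg2, 0.463 for Dsc1 and 0.387 for Dsg1c. Neighbours in this order did not overlap over the WT libraries except Dsc3 with Dsg3 and Dsc1 with Dsg1c. Within each single WT library, Dsc3 was above Dsg3. In KO the order was Dsc2 (462 FPKM), Dsg3 (292), Dsg1a (183), Dsc3 (162), Dsg1b (132), Dsc1 (119), Dsg2 (8.21) and Dsg1c (0.423). The FPKM ranges of Dsg1a, Dsc3, Dsg1b and Dsc1 overlapped from neighbour to neighbour over the KO libraries. Compared within each KO library, Dsg1a and Dsc3 were both above Dsg1b every time. Dsg1a was above Dsc3 except in KO replicate 3, and Dsg1b was above Dsc1 except in KO replicate 1. Dsg2 and Dsg1c stayed far below all others.

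As a share of the summed FPKM of the 8 genes, Dsg1a went from 27.0% ± 3.06 to 13.3% ± 3.14 and Dsc3 from 20.6% ± 0.972 to 11.9% ± 0.802 (± SD, n = 3 each). Larger shares were held in KO by Dsc1, from 0.0490% ± 0.00664 to 8.68% ± 3.03, Dsg1b, from 2.78% ± 0.167 to 9.67% ± 0.514, and Dsg3, from 15.4% ± 1.97 to 21.7% ± 3.35 (SD, n = 3 each). Dsc2 kept a similar share, 32.6% ± 2.08 in WT and 34.1% ± 2.79 in KO, and Dsg2 went from 1.49% ± 0.227 to 0.612% ± 0.0932. A share also moves when the other members do, so these values describe composition and not the change of a single gene.

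The balance between the subfamilies was close in all libraries while the members within each changed places. Desmogleins made up 47.5%, 45.1% and 47.4% of the summed FPKM in WT and 45.4%, 45.4% and 45.0% in KO, the remainder being desmocollins. The ratio of Dsc1 to Dsc3 FPKM was 0.00237 ± 0.000220 in WT and 0.741 ± 0.302 in KO (± SD, n = 3 each), with 1.07 in KO replicate 1. The ratio of Dsc2 to Dsc3 went from 1.59 ± 0.166 to 2.88 ± 0.220. The 8 genes together accounted for 0.462% ± 0.0317 of WT counts and 0.658% ± 0.0871 of KO counts (SD, n = 3 each), with no overlap between groups.

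**Figure D4:**
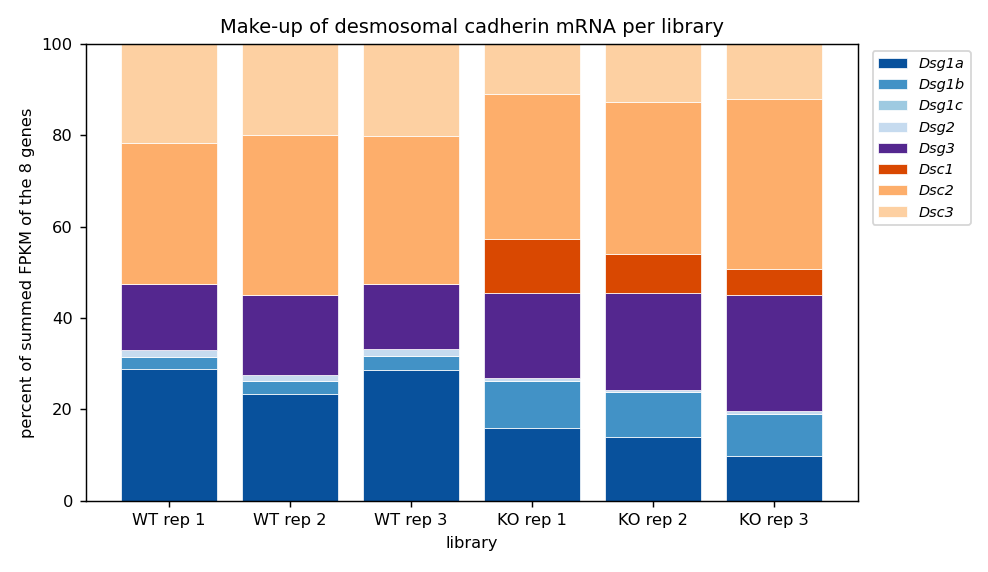
Percent of the summed FPKM of the 8 desmosomal cadherin genes taken by each gene, one stacked bar per library, desmogleins in blue and purple and desmocollins in orange. The border between the subfamilies sits between 45.0% and 47.5% in every library, while Dsc1 is visible only in the KO bars (5.75% to 11.8%).

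The other genes of the desmosome were taken from a list of 11, of which 10 were tested. Of these 3 were higher in KO (Pkp1, Perp and Cdsn), 4 were lower (Pkp2, Pkp4, Evpl and Ppl) and 3 did not pass, with a median log2 fold change of 0.01. Here and for the lists that follow the background is again 62.0% of tested genes called, 31.8% higher and 30.2% lower. The core plaque genes that link every desmosomal cadherin to keratin were among those not called. Jup, the gene of plakoglobin, reached 49732, 52401 and 48913 counts in WT libraries and spread from 36249 through 41347 to 63134 in KO (log2 fold change 0.01, adjusted p = 0.973, edgeR), and Dsp, the gene of desmoplakin, had a log2 fold change of 0.24 (adjusted p = 0.249, edgeR). Pkp3 had a log2 fold change of 0.02 (adjusted p = 0.902, edgeR). The 95% intervals were 0.729-fold to 1.39-fold for Jup, 0.901-fold to 1.55-fold for Dsp and 0.830-fold to 1.24-fold for Pkp3. Each covers a fall, no change and a rise. KO replicate 1 was the highest KO library for Jup and Dsp.

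Cdsn, the gene of corneodesmosin, which is built into the desmosomes of cornifying cells, was counted 149, 583 and 138 times in WT and 36054, 12359 and 22012 times in KO (log2 fold change 6.45 ± 0.709 SE), with an edgeR adjusted p = 1.02e-04. Pkp1, the plakophilin of stratified epithelium, and Perp, a tetraspan protein of desmosomes, rose by smaller steps, with log2 fold changes of 0.77 and 0.77. The plakins of the cornified envelope and desmosome edge, Evpl and Ppl, fell, with log2 fold changes of -1.17 and -0.61. Pkp4 had -1.18 and Pkp2 -0.94, the latter on WT counts of 80, 91 and 152 against KO counts of 32, 55 and 70 (adjusted p = 0.0422, edgeR). The call of Pkp2 was lost in 4 alternative fits.

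For comparison, 8 genes of the adherens junction, the other cadherin junction of epithelium, had 1 higher and 4 lower members, close to the 62.0% of tested genes called, with a median log2 fold change of -0.24. Cdh3, the gene of P-cadherin, was counted 199, 307 and 275 times in WT against 1591, 1150 and 1487 times in KO (log2 fold change 2.54 ± 0.191 SE, edgeR adjusted p = 1.41e-05). Cdh1, the gene of E-cadherin, was lower (log2 fold change -0.32, adjusted p = 0.0396, edgeR), a call lost in 6 alternative fits. Ctnna1, Nectin4 and Afdn had log2 fold changes of -0.90, -0.57 and -0.43, while Ctnnb1, Ctnnd1 and Nectin1 did not pass. Ctnnb1 was called higher by DESeq2 and Ctnnd1 lower in both limma fits.

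Proteases linked to the cleavage of desmosomal cadherins, and protease inhibitors, formed a list of 12 with 11 tested. Of these 7 were higher, 2 lower and 2 not called, beside 31.8% of tested genes higher and 30.2% lower. Klk5, Klk6 and Klk7 had at most 4 counts in any WT library, and Klk8 had more. Klk5 was at 0 in WT against 60, 23 and 70 counts in KO, and Klk7 was counted 1, 1 and 2 times in WT against 1605, 804 and 1688 times in KO. Klk6 was counted 0, 3 and 4 times in WT against 407, 237 and 450 times in KO. Klk8 went from 58, 40 and 55 counts to 7492, 5621 and 6924, a log2 fold change of 7.14 ± 0.193 (SE), edgeR adjusted p = 1.38e-07. Spink5, the gene of the kallikrein inhibitor LEKTI, rose with 2.71 ± 0.360 (SE), edgeR adjusted p = 2.87e-04, so the kallikrein genes and this inhibitor gene were higher in the same libraries. Spink6, the other inhibitor gene of the list, had at most 1 count in any library and was not tested. Ctsd and Adam10 had log2 fold changes of 0.98 and 0.31. St14, the gene of matriptase, and Adam15 had -0.54 and -0.37. The call of Adam10 was lost in both limma fits, and that of Adam15 without WT replicate 1, KO replicate 2 or KO replicate 3 in turn.

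Of 9 regulators linked to desmosomal cadherin genes, 3 were higher, 1 was lower and 5 did not pass. Cebpa and Cebpb, genes of C/EBP factors of keratinocyte differentiation, rose with log2 fold changes of 1.23 and 1.56, and Grhl3 with 0.86. Grhl2 had a log2 fold change of -0.72, and Grhl1, a factor known to act on Dsg1 in skin, had 0.21 (adjusted p = 0.158, edgeR). Trp63, Klf4, Klf5 and Prkca did not pass, and Klf4 was called lower in 4 alternative fits.

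**Figure D5:**
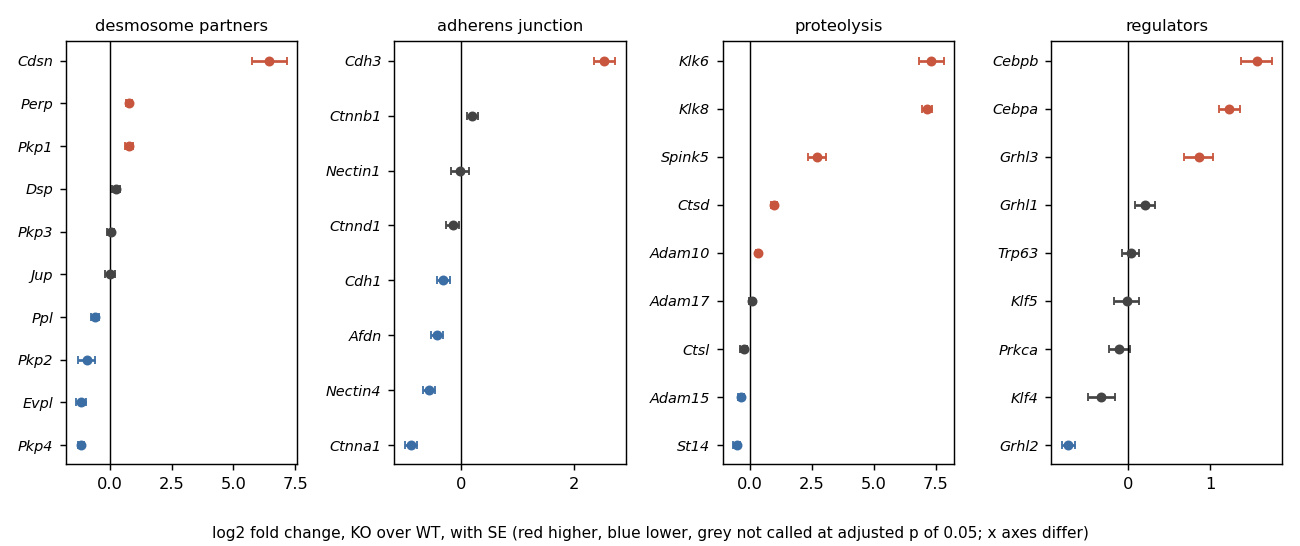
Log2 fold change of KO over WT with its SE for tested genes of the desmosome partner, adherens junction, proteolysis and regulator lists, red for called higher, blue for called lower and grey for not called; the axes differ between panels. Cdsn (6.45), Klk8 (7.14) and Klk6 (WT at most 4 counts, so its estimate depends on the count added before the logarithm) lie far from the rest, and Klk5 and Klk7 are left out because WT was at or under 3 counts.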

How the data were processed

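Total RNA of 6 separated corneal epithelium samples was depleted of ribosomal RNA and sequenced as single-end 50-base reads on a BGI instrument according to the study's methods, whereas the labels name an Illumina kit. Reads were cleaned with SOAPnuke, then Bowtie2 2.2.5 aligned them and RSEM 1.2.12 estimated levels, all by the authors. The deposited table holds estimated counts, FPKM and TPM per gene and library. The authors' FPKM correct for gene length and depth. The deposited TPM were used for nothing but a check that each library sums to 1000000. The submitters' notes name mm9, but the table's coordinates are those of GRCm38. The table also holds the authors' own fold changes and p-values, which were not used.

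Estimated counts were rounded and compared by the quasi-likelihood test of edgeR 4.0.16 (R 4.3.3) with TMM scaling, the filterByExpr filter and genotype alone in the model. Adjustment was by Benjamini-Hochberg over all 13305 genes that passed. SE was taken from the size of the log2 fold change over the root of its F statistic. P-values weigh the difference between groups against the spread among 3 libraries per group. That spread was estimated per gene with information shared over the tested genes. Alternatives were DESeq2 1.42.0, limma 3.58.1 on log2(FPKM + 1) and log2(FPKM + 0.1), other scalings, filters and dispersions, a replicate block, the Dsg1 genes summed, and each library left out. The edgeR, DESeq2, limma and replicate block fits were also run on simulated counts as a check of the code. The simulation gave every gene the same dispersion, so it does not show how the fits perform on these data. Shared 50-base windows and identities (local alignment, Biopython 1.88) came from GENCODE M21 transcripts. Members and gene lists were chosen with earlier results of these data known. Genes named were the members, Rela, list genes, the 5 table genes on either side, and the 3 nearest profiles of members called with a fold of at least 2. Cdh5 and Elovl3 of the marker lists were not analysed here.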

Additional observations from a re-analysis of the deposited data

How the results depend on the processing

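Over 17 alternative fits, or fewer where a gene was summed or filtered out, Dsc1, Dsg1b, Dsg3, Dsc2 and Dsg2 kept their direction and their call in every fit, and Dsg1a, Dsg1c and Dsc3 were called in none. The log2 fold change ranged from 6.28 to 8.38 for Dsc1, 2.27 to 2.52 for Dsg1b, 1.00 to 1.28 for Dsg3, 0.58 to 0.79 for Dsc2 and -0.76 to -0.59 for Dsg2, and its lowest value for Dsc1 came with log2(FPKM + 1), which shrinks low levels. For Dsg1a it ranged from -0.54 to -0.14 and for Dsc3 from -0.30 to -0.09. The only reversal among the members was Dsg1c without WT replicate 2, at -0.12, and leaving out 1 library at a time gave -0.12 to 0.49 for it. With genes of a mean count of at least 50 only, 4 flanking genes could be tested and 2 were called. Shares taken from CPM in place of FPKM moved by more than 1 SD for Dsg1b (3.17% in WT, 11.1% in KO), Dsg2 (1.77% and 0.741%), Dsc3 (22.0% and 12.9%) and Dsg3 in WT (13.1%), because length is then not corrected. The replicate numbers were not taken as pairs in the main fit. Correlations of same-numbered deviations ran from -0.010 to 0.061, but with 3 libraries per group they cannot exclude a pairing. With the replicate block 8083 genes were called in place of 8253, with the same 5 members. The SE of each member was smaller in that fit, for Dsc1 0.186 in place of 0.377. Dsg1c, with 13.6 to 44.5 counts, is the member that depth limits most.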

Other observations

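The table annotates 27 genes to the desmosome as a cellular component, 19 of which are not among the 8 cadherins. Of these, 17 were tested, and 4 were higher, 8 lower and 5 not called. Among all genes tested 62.0% were called, 31.8% higher and 30.2% lower. Beyond the genes already described, Pof1b, an actin-binding protein of epithelial junctions, stood at 239 ± 13.7 CPM in WT libraries and was higher at 393 ± 48.6 CPM in KO (SD, n = 3 each), with a log2 fold change of 0.71 ± 0.116 (SE) and an edgeR adjusted p = 8.47e-04. Kazn, the gene of kazrin, which binds periplakin, was lower by edgeR (log2 fold change -1.13 ± 0.133 SE, adjusted p = 1.46e-04). B4galt1, Tchp and Pnn were also lower, with log2 fold changes of -1.10, -1.09 and -0.39. The annotated set was looked at after the values of the table were seen.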
